A study of Bos taurus with 179 samples.

Results

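The first step of bovine oocyte growth covered by the series was examined by comparing oocytes < 60 μm in diameter with oocytes of 60–69 μm. Membership followed the diameter measured before lysis, as the labels give it, and the list of oocytes that passed the quality control of the study. By this rule 46 of the 165 listed oocytes entered the comparison, 21 of them < 60 μm (48.0 to 59.91 μm, median 56.88 μm) and 25 of 60–69 μm (60.0 to 69.63 μm, median 65.5 μm). Another 6 deposited oocytes of these sizes (5 and 1) were not on the list and stood outside the main comparison.

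The oocytes were Bos taurus cells from abattoir ovaries, freed from the cortex in a medium that held cilostamide, an inhibitor of phosphodiesterase 3, heparin and antibiotics, and then stripped of their follicular cells. Both compared groups shared this medium, and both size groups belong to the secondary follicle stage. Polyadenylated RNA of each oocyte was amplified on its own by a Smart-seq2 protocol. Breed, age and the animal behind an oocyte are not given in the sources used here, so oocytes of 1 group may share an animal. Libraries were made in 2 replicates, of which replicate 1 was read with 150 bp and replicate 2 with 75 bp. The groups were unevenly spread over them, with 3 and 18 oocytes < 60 μm and 17 and 8 oocytes of 60–69 μm in replicates 1 and 2.

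A secondary follicle holds a growing oocyte that is arrested in prophase of the first meiotic division and is surrounded by several layers of granulosa cells. During growth the oocyte enlarges, builds its zona pellucida and organelles, and stores mRNA that is translated only later, at maturation and in the early embryo. The genes that act in meiotic recombination work before this arrest. Diameter therefore serves as a measure of the progress of growth.

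Total counts per oocyte ranged from 319492 to 6270510 (median 2461264.5), with group medians of 2563427 (< 60 μm) and 2439789 (60–69 μm). Summed within a group and replicate, they came to 13452646 and 43888471 counts for oocytes < 60 μm and to 46545515 and 20997147 counts for oocytes of 60–69 μm in replicates 1 and 2. A single oocyte contributed 46.6% of the counts of the smallest of these sums. A pair of oocytes stood apart from the others: 1 of 60–69 μm in replicate 1 had a low correlation with the median oocyte of its replicate, and 1 of < 60 μm in replicate 2 was nearer to the mean of replicate 1. Without both, 3 DEGs were upregulated in place of 2. Fewer transcripts of a gene and a larger pool of all other transcripts cannot be told apart in these values, which are relative to the total of each library.

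Both groups carried markers of oocytes, although not every marker had a count in every oocyte. BTG4, a regulator of the decay of maternal mRNA, and BMP15, an oocyte growth factor of the TGF-beta family, had counts in all 46 oocytes. ACTL8 had counts in 2 of 3 and 6 of 18 oocytes < 60 μm in replicates 1 and 2. At 60–69 μm it had them in 9 of 17 and 3 of 8 oocytes. The summed level of the 7 oocyte markers, as the count per 1000000 counts of the oocyte (CPM), had a median of 4529 in replicate 1 and 4883 in replicate 2 for oocytes < 60 μm, and of 5961 and 6180 for oocytes of 60–69 μm. Most of this level came from BTG4 and CPEB1. On the raw totals, BTG4 and BCAR4 were higher at 60–69 μm in both replicates. BMP15, ACTL8, BNC1, AURKC and CPEB1 differed in opposite directions in the replicates. The 6 granulosa and theca gene IDs together had medians between 3.00 and 5.53 CPM in all combinations of group and replicate. Of its defining members, CYP11A1, AMHR2 and CYP17A1 had at most 12 counts in any sum. FSHR, the receptor of follicle-stimulating hormone on granulosa cells, had 1 and 46 counts at < 60 μm (in 1 of 3 and 11 of 18 oocytes) and 11 and 28 counts at 60–69 μm (in 5 of 17 and 5 of 8 oocytes) in replicates 1 and 2. HSD17B1 supplied most of the signal. The 5 endothelial markers together did not exceed 3.90 CPM in any oocyte, and CD34 had no count. Blood and immune markers ranged from 9.64 to 185.8 CPM per oocyte, nearly all from CSF1R, which had counts in every oocyte. Stroma and smooth muscle markers were the only somatic list with a higher median at 60–69 μm in both replicates (13.4 against 5.77 CPM in replicate 1 and 15.7 against 5.92 CPM in replicate 2). ACTA2 and COL1A2 carried this, neither was called (edgeR's quasi-likelihood test, Benjamini-Hochberg adjusted p = 1.0 for both), and COL1A1, COL3A1, DCN and DPT were at or near 0 with at most 21 counts in any sum. The part of these cells in the results below was not tested.

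The main question was which genes change as the oocyte passes 60 μm. Of 14087 genes tested on the sums of 8 size groups and 2 replicates, 2 were upregulated at 60–69 μm (0.0142% of the genes tested) and 0 were downregulated at an adjusted p below 0.05 (quasi-likelihood test of edgeR, adjusted by Benjamini-Hochberg). At an unadjusted p below 0.05 the same test gave 354 genes with a higher level at 60–69 μm (2.51%) and 98 with a lower level (0.696%). DESeq2 on the same sums called 7 genes upregulated and 0 downregulated, with 545 genes at an unadjusted p below 0.05. This lean towards higher levels was lost without the sum of the 3 oocytes < 60 μm in replicate 1, where 181 genes were higher and 295 lower at an unadjusted p below 0.05. It was likewise turned with all 179 deposited oocytes (370 higher, 469 lower) and with single oocytes as units, both of all groups (544 of 1000 such genes lower) and of the 2 groups (375 of 584 lower), whereas single oocytes of all groups with ComBat-seq counts and no block kept it (618 of 963 higher). One of the upregulated genes was CALB1, the other ENSBTAG00000012296, which carries no symbol in the tables used. Since the labels do not say that the replicates came from separate animals, these p-values measure only the spread between the sums, which may be technical.

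CALB1 (ENSBTAG00000015924) encodes calbindin, a cytosolic EF-hand protein that buffers calcium. It had 0 counts in each of the 21 oocytes < 60 μm, that is 0 in 13452646 counts of replicate 1 and 0 in 43888471 counts of replicate 2. If oocytes are independent, a result of 0 of 21 allows a share of oocytes with a count of up to 14.3%. The labels do not show that they are, since oocytes may share an animal. This value sets no limit on the share that hold the transcript below the depth of their library. At 60–69 μm, 16 of 25 oocytes had a count (64.0%). In replicate 1, 9 of 17 oocytes had a count, and the level per oocyte ran from 0 to 9.39 CPM with a median of 0.513 CPM. In replicate 2, 7 of 8 oocytes had a count, from 0 to 15.985 CPM with a median of 5.596 CPM. The larger oocytes overlapped with the smaller ones only at 0.

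On the raw totals the sums at 60–69 μm held 0.537 CPM of CALB1 in replicate 1 and 7.24 CPM in replicate 2. Against a floor of 3 counts in each sum of oocytes < 60 μm, the summed level at 60–69 μm was at least 2.41-fold higher in replicate 1 and at least 106-fold higher in replicate 2. The floor bounds only the side at 0 and takes the 60–69 μm sums as exact. In replicate 1 it rests on 3 oocytes, of which the deepest gave 46.6% of the counts. The gene was upregulated at an adjusted p of 0.0414 (edgeR's quasi-likelihood test, Benjamini-Hochberg). With each oocyte thinned to 250000 counts, 11 of 25 oocytes of 60–69 μm and 0 of 21 oocytes < 60 μm had a count of CALB1, and the call was lost (adjusted p = 0.708 by the same edgeR test). It was also lost with all 179 deposited oocytes (adjusted p = 0.156), without the < 60 μm sum of replicate 2 (adjusted p = 0.127), without the 60–69 μm sum of replicate 2 (adjusted p = 0.220) and with no replicate block (adjusted p = 1.0), each by the same edgeR test. The fitted log2 fold change of CALB1, which depends on the prior count because 1 group is at 0, lay between 5.81 and 10.50 in the 29 settings that tested it.

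Ordered by diameter, the counts of CALB1 began shortly above the group boundary. The 25 oocytes below 61.83 μm, among them 4 of 60–69 μm, had none, and 16 of the 21 oocytes at or above it had at least 2 counts each. The smallest oocyte with a count measured 61.83 μm in replicate 2 and 62.34 μm in replicate 1. None of the 6 deposited oocytes outside the list had a count of CALB1, of which those of 53.97, 48.4 and 61.5 μm had totals of 4933709, 2487675 and 1084521 counts and the other 3 had at most 143505. This order is a description, since the position was read from the same values.

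ENSBTAG00000012296 was upregulated with a log2 fold change of 3.19 (SE 0.42, adjusted p = 0.00531, quasi-likelihood test of edgeR, Benjamini-Hochberg). The TMM-scaled level of the sums was 1.25 CPM in replicate 1 and 3.09 CPM in replicate 2 at < 60 μm, from 163 counts in all. At 60–69 μm it was 9.07 CPM and 33.9 CPM, from 1140 counts in all. The log2 difference was 2.78 within replicate 1 and 3.42 within replicate 2, higher at 60–69 μm in both.

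Single oocytes showed the same order with overlap. Of 3 oocytes < 60 μm in replicate 1, 1 had counts of ENSBTAG00000012296 (0, 0 and 4.01 CPM), and of 18 in replicate 2, 10 had counts (lowest 0, median 0.957, highest 31.7 CPM). At 60–69 μm, 13 of 17 oocytes in replicate 1 had counts (0, 5.35 and 93.7 CPM) and all 8 in replicate 2 (11.6, 18.3 and 92.2 CPM). The lowest oocyte of 60–69 μm in replicate 2 thus lay above all but 1 of the oocytes < 60 μm of that replicate. A single oocyte held 34.7% and 51.6% of the counts of the 60–69 μm sums. Leaving out the richest oocyte of each sum gave levels, on the raw totals, of 6.205 CPM in replicate 1 and 20.3 CPM in replicate 2 at 60–69 μm, against 0 and 2.11 CPM at < 60 μm. The call was lost without the 60–69 μm sum of replicate 2 (adjusted p = 0.102), with single oocytes of the 2 groups as units (adjusted p = 0.550) and with no replicate block (adjusted p = 1.0), all by edgeR.

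**Figure D1:**
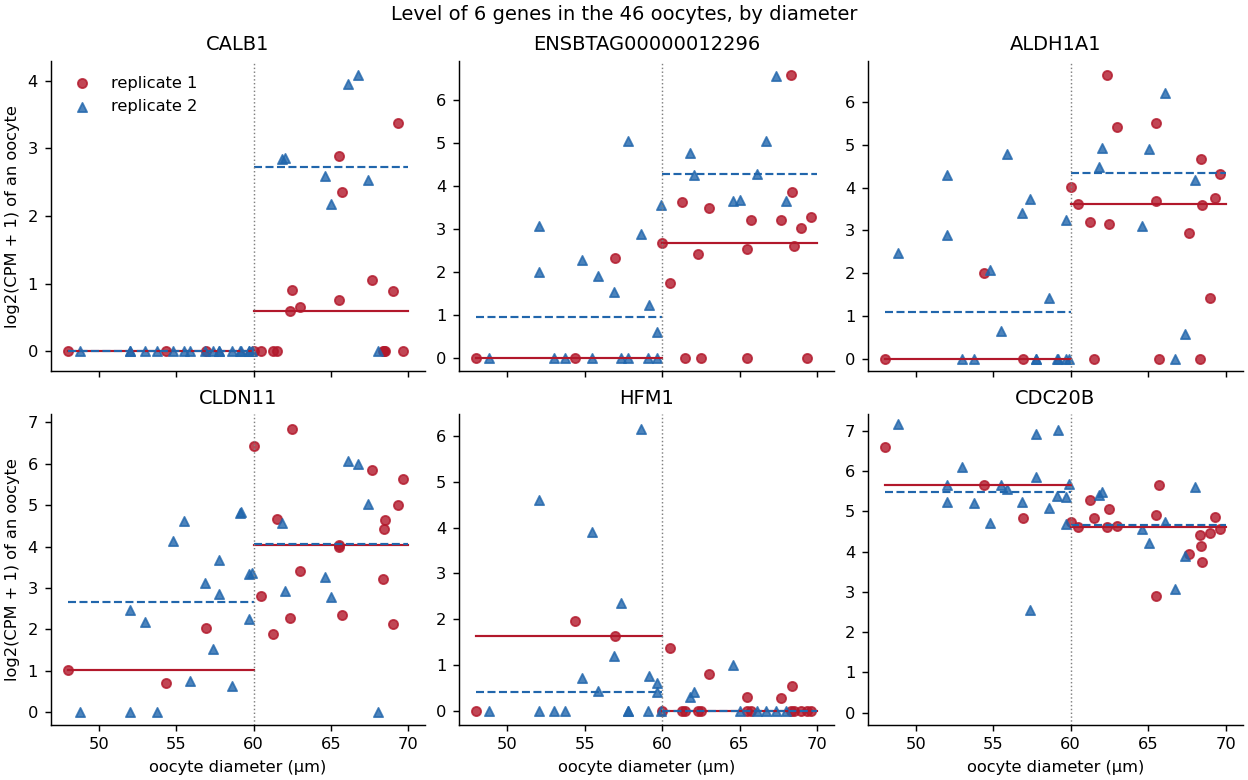
Each panel plots the level of 1 gene in the 46 oocytes, as log2(CPM + 1), against oocyte diameter in μm, with circles for replicate 1, triangles for replicate 2, horizontal lines at the median of each group and replicate (solid for replicate 1, dashed for replicate 2) and a dotted line at 60 μm. CALB1 is at 0 in all 21 oocytes < 60 μm and present in 16 of 25 oocytes of 60–69 μm, whereas CDC20B has counts in all 46 and a lower median at 60–69 μm in both replicates.

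Both upregulated genes stayed present in all larger size groups. TMM-scaled, the CALB1 level of the sums was 0.531 CPM in replicate 1 and 7.22 CPM in replicate 2 at 60–69 μm and reached 20.7 and 55.2 CPM at 110–119 μm, with 15.5 and 20.5 CPM at > 120 μm, and the share of oocytes with a count lay between 69.6% (70–79 μm) and 100.0% (100–109 μm). ENSBTAG00000012296 reached 42.5 and 86.7 CPM at 110–119 μm, and 30.1 and 129 CPM at > 120 μm. The 60–69 μm sum of replicate 2 exceeded the 70–79 μm sum of that replicate for both genes, 7.22 against 3.02 CPM and 33.9 against 20.9 CPM.

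Genes were named further by a rule, the 8 genes with a symbol and the smallest p in each direction among those that differed in the same direction in both replicates. Apart from CALB1, the 7 genes with higher levels at 60–69 μm were ALDH1A1, ALB, RIPPLY2, KCNH5, CLDN11, COL15A1 and BSP1. None of these 7 passed the test, with adjusted p between 0.131 and 1.0 (edgeR, Benjamini-Hochberg). None changed its direction under any of the alternatives that could be fitted. That was largely fixed beforehand, since the rule asked for a shared direction and most alternatives reuse the same sums.

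ALDH1A1, a retinaldehyde dehydrogenase that makes retinoic acid, came closest. Oocytes < 60 μm had 0, 0 and 3.03 CPM in replicate 1 and a lowest, median and highest value of 0, 1.12 and 26.7 CPM in replicate 2. At 60–69 μm the same values were 0, 11.3 and 98.2 CPM in replicate 1 and 0, 19.3 and 72.9 CPM in replicate 2. The groups overlapped, and the share of oocytes with a count was 52.4% at < 60 μm (11 of 21) and higher at 60–69 μm (21 of 25). The log2 fold change was 2.60 (SE 0.49, adjusted p = 0.131, edgeR), and 7 of 30 settings called the gene, DESeq2 among them (adjusted p = 0.000136). Without the richest oocyte of each sum, ALDH1A1 had 0 and 4.15 CPM at < 60 μm and 13.1 and 13.8 CPM at 60–69 μm on the raw totals. In the sums of larger oocytes the level continued to 310 CPM in replicate 1 (110–119 μm) and 277.2 CPM in replicate 2 (100–109 μm), from 1.396 and 5.24 CPM at < 60 μm.

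CLDN11 encodes a claudin of tight junctions. Its level in oocytes < 60 μm was 0.638, 1.02 and 3.07 CPM in the 3 oocytes of replicate 1 and 0, 5.38 and 27.6 CPM (lowest, median, highest) in replicate 2. The 60–69 μm oocytes had 2.73, 15.4 and 114.4 CPM in replicate 1 and 0, 15.7 and 65.7 CPM in replicate 2. In replicate 1, 16 of the 17 oocytes of 60–69 μm lay above the highest oocyte < 60 μm, whereas the groups of replicate 2 overlapped widely. The fitted log2 fold change was 2.31 (SE 0.56, adjusted p = 0.741, edgeR), made of a difference of 3.90 in replicate 1 and 1.85 in replicate 2. A call was made in 5 of 30 settings, among them DESeq2 (adjusted p = 0.0396).

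RIPPLY2, a transcriptional co-repressor known from somite formation, and KCNH5, a voltage-gated potassium channel, were rarer. RIPPLY2 had a count in 9 of 21 and 19 of 25 oocytes, and KCNH5 in 8 of 21 and 19 of 25. The RIPPLY2 sums held 0.221 and 1.396 CPM at < 60 μm and 1.68 and 6.604 CPM at 60–69 μm (log2 fold change 2.25, SE 0.54, adjusted p = 0.741, edgeR). For KCNH5 these were 0.662 and 2.30 CPM against 2.19 and 10.9 CPM (log2 fold change 2.01, SE 0.49, adjusted p = 0.741, edgeR). Without the richest oocyte of each sum, the levels on the raw totals were 0 and 1.22 CPM against 0.912 and 4.90 CPM for RIPPLY2, and 0 and 1.51 CPM against 1.66 and 7.49 CPM for KCNH5. Neither was called in any setting. Both were at their lowest at < 60 μm among all 8 size groups in each replicate. They were chosen for lower sums there than at 60–69 μm, so this order is no separate support.

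COL15A1, a collagen of basement membranes, had 0.662 and 0.698 CPM in the sums at < 60 μm and 3.42 and 4.13 CPM at 60–69 μm (log2 fold change 2.45, SE 0.67, adjusted p = 1.0, edgeR), with counts in 8 of 21 and 19 of 25 oocytes. Without the richest oocyte of each sum COL15A1 had 0 and 0.558 CPM against 2.91 and 2.71 CPM on the raw totals. Of the stroma and smooth muscle markers, ACTA2 and COL1A2 were likewise higher at 60–69 μm in both replicates. The others, COL1A1, COL3A1, DCN and DPT, were at or near 0, as given above. BSP1, a binder of sperm known from seminal plasma and one of a family of close paralogs whose reads may be shared, had 1.25 and 20.6 CPM against 27.8 and 62.6 CPM (log2 fold change 2.31, SE 0.63, adjusted p = 1.0, edgeR), and 3 of 30 settings called it. Without the richest oocyte of each sum BSP1 had 0.557 and 15.8 CPM against 17.5 and 51.5 CPM on the raw totals. Unlike the others it was present in a slightly smaller share of the larger oocytes, 19 of 25 against 17 of 21. ALB, serum albumin, had 0 counts in all oocytes < 60 μm and 50 and 38 counts in the sums at 60–69 μm, where 7 of 25 oocytes had a count. Against a floor of 3 counts in each sum of oocytes < 60 μm, its summed level was at least 4.82-fold higher in replicate 1 and at least 26.5-fold higher in replicate 2. The floor bounds only the side at 0. These folds take the 60–69 μm sums as exact and are no lower limit for the oocytes of that group. A single oocyte held 54.0% and 89.5% of the ALB counts of these sums, and at 250000 counts 1 of the 25 oocytes kept a count. ALB was called in 2 of the 27 settings that tested it, DESeq2 among them (adjusted p = 0.0396).

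The 8 genes with lower levels at 60–69 μm were HFM1, APOOL, C15H11orf97, CDC20B, C19H17orf75, ASTE1, CDKN1C and CMSS1. All had an adjusted p of 1.0 (edgeR, Benjamini-Hochberg), and none was called in any setting. APOOL and C15H11orf97 had counts in 3 and 2 of the 21 oocytes < 60 μm, HFM1 in 12, ASTE1 in 15, CDKN1C in 17, and the other 3 genes in all 21. HFM1, C15H11orf97, CDC20B and CMSS1 stand on several lines of the count table, which were summed.

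HFM1, a DNA helicase needed for crossovers in meiosis, had the smallest p of these 8. It had 27 and 413 counts in the sums at < 60 μm (1.98 and 8.73 CPM) and 13 and 4 counts at 60–69 μm (0.276 and 0.190 CPM). The fitted log2 fold change was −4.21 (SE 1.26, adjusted p = 1.0, edgeR), with −2.51 within replicate 1 and −4.99 within replicate 2. Counts occurred in 12 of 21 oocytes < 60 μm and in 8 of 25 of 60–69 μm, and at 250000 counts in 3 and 1. The highest oocyte < 60 μm had 70.5 CPM and held 61.7% of the counts of its sum. Without the richest oocyte of each sum, the levels on the raw totals were 1.25 and 3.92 CPM at < 60 μm and 0.164 and 0.105 CPM at 60–69 μm. In the 6 groups above 69 μm the HFM1 level lay between 0 and 1.10 CPM.

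APOOL, a protein of the mitochondrial MICOS complex, had 53 and 30 counts at < 60 μm, from 3 of 21 oocytes, and 4 and 0 counts at 60–69 μm, from 1 of 25. C15H11orf97 had 10 and 25 counts from 2 of 21 oocytes and 0 counts in all 25 oocytes of 60–69 μm. If oocytes are independent, which the labels do not show, this allows a share with a count of up to 12.0%. Both genes therefore rested on 3 oocytes or fewer. Their levels were at most 0.147 CPM in every sum above 60 μm, so that they passed the filter on low counts only through the group where they were high, and their differences are given as a description.

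CDC20B, a relative of the anaphase activator CDC20, had counts in all 46 oocytes. Oocytes < 60 μm had 27.6, 49.1 and 96.1 CPM in replicate 1 and 4.90, 43.3 and 143.8 CPM (lowest, median, highest) in replicate 2. At 60–69 μm the values were 6.43, 23.6 and 49.6 CPM in replicate 1 and 7.38, 24.2 and 47.5 CPM in replicate 2. The medians were similar between replicates, and the ranges of the groups overlapped. The log2 fold change was −0.93 (SE 0.34, adjusted p = 1.0, edgeR), and no larger size group reached the level of the smallest oocytes in either replicate.

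CMSS1 sums had 54.98 and 37.3 CPM at < 60 μm and 27.6 and 15.96 CPM at 60–69 μm (log2 fold change −1.09, SE 0.43, adjusted p = 1.0, edgeR). Without the richest oocyte, the < 60 μm sum of replicate 1 had 32.2 CPM of CMSS1 on the raw totals. The level went on to 3.92 and 3.26 CPM at > 120 μm. CDKN1C, an inhibitor of cyclin-dependent kinases, had 12.8 and 4.52 CPM against 2.68 and 4.13 CPM (log2 fold change −1.36, SE 0.53, adjusted p = 1.0, edgeR), so nearly all of its difference came from replicate 1. C19H17orf75 and ASTE1 had log2 fold changes of −1.02 (SE 0.38) and −1.28 (SE 0.49) at an adjusted p of 1.0 (edgeR). In replicate 1, a single oocyte < 60 μm held 138 of the 181 ASTE1 counts of its sum. It had 22.0 CPM, against 6.79 and 5.43 CPM in the others of that sum.

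**Figure D2:**
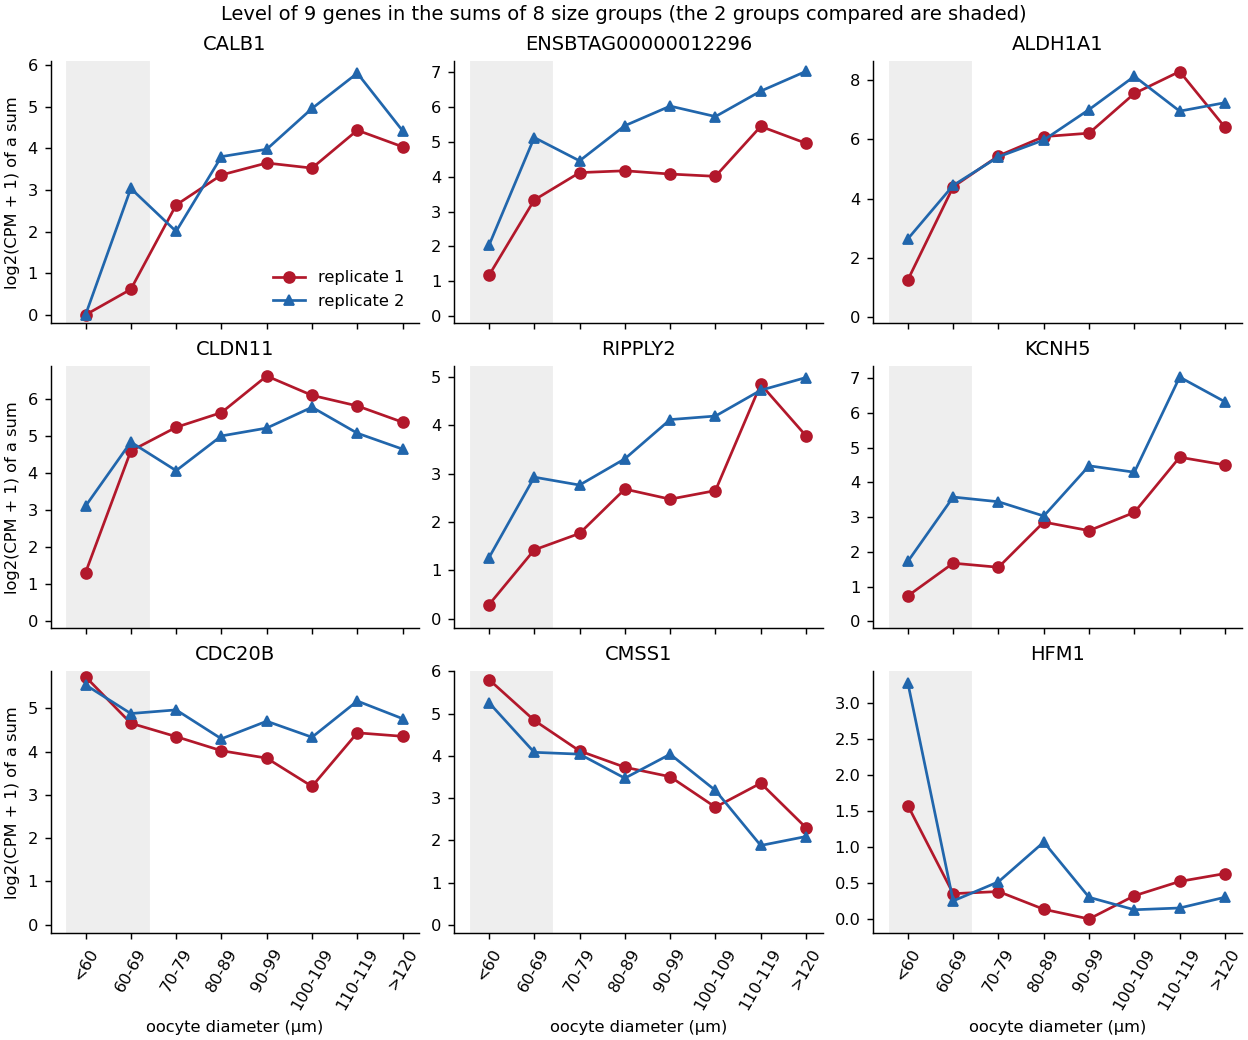
Each panel plots the level of 1 gene in the summed counts of the 8 size groups, as log2(CPM + 1), against the diameter group in μm, with circles for replicate 1, triangles for replicate 2 and the compared groups shaded. The first 6 genes have their lowest sum at < 60 μm in both replicates, and CDC20B, CMSS1 and HFM1 have their highest sum there.

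Across all genes, the differences of the replicates had little in common. The log2 difference within replicate 1 and that within replicate 2 had a correlation of 0.0014 across the 14087 genes, and of −0.0276 across the 5174 genes with a mean log2 CPM of 5 or more. These are correlations across genes, which are not independent, and the sums of replicate 1 hold 3 and 17 oocytes. Of all genes tested, 24.6% were higher at 60–69 μm in both replicates, 22.9% were lower in both and 52.3% did not share a direction. At a fold of 2 or more in both replicates, 332 genes were higher, 196 were lower and 507 differed in opposite directions. The log2 fold changes of the fit were centred at −0.01 (quartiles −0.28 and 0.25), with a median standard error of 0.42.

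**Figure D3:**
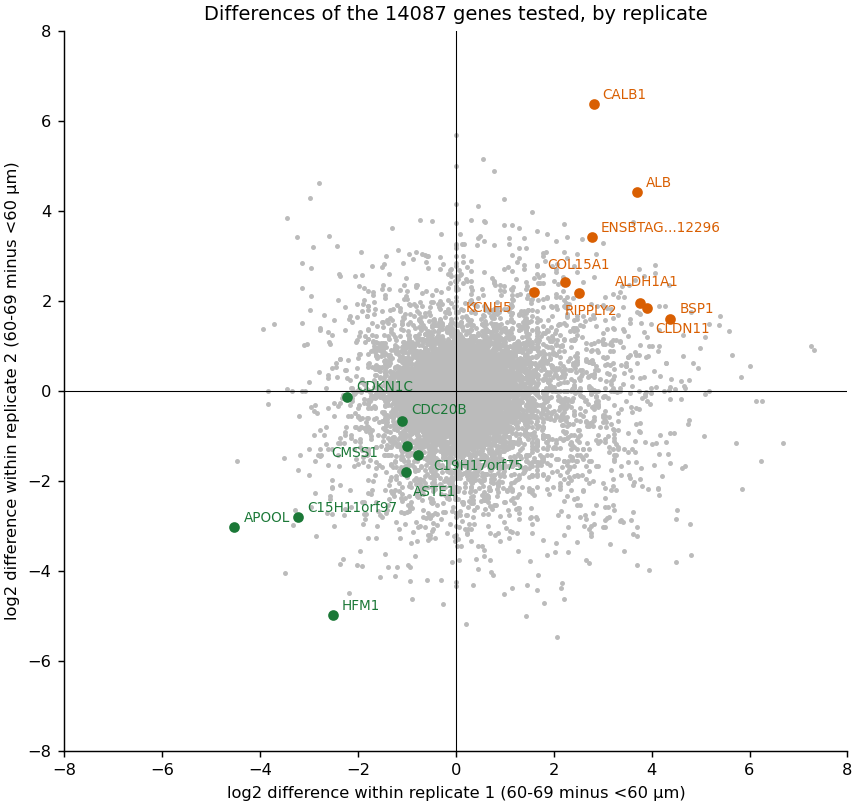
Each grey point is 1 of the 14087 genes tested, with its log2 difference (60–69 minus < 60 μm) within replicate 1 on the horizontal axis and within replicate 2 on the vertical axis, and the named genes are in orange (higher) and green (lower). The cloud is round around 0, and the named genes CALB1, ALB, ENSBTAG00000012296, RIPPLY2 and COL15A1 lie above 2 on both axes.

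Correlations between whole oocytes were close in size between and within the groups. The median correlation of log2(CPM + 1) over 10767 genes was 0.883 between an oocyte < 60 μm and an oocyte of 60–69 μm of replicate 1, against 0.883 and 0.888 within the groups. In replicate 2 it was 0.849 between the groups and 0.837 and 0.867 within them. Pairs that crossed the replicates had a lower median of 0.797. These pairs share oocytes and are given as a description.

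At 250000 counts per oocyte, the median number of genes detected was 9603 (lowest 9228, highest 10416) in the 3 oocytes < 60 μm and 9871 (8699 to 10536) in the 17 oocytes of 60–69 μm of replicate 1. In replicate 2 it was 9593.5 (7973 to 10500) in 18 and 9775 (8458 to 10133) in 8 oocytes. The medians were higher at 60–69 μm in both replicates, by less than the SD between oocytes of any group and replicate (449.3 to 686.1 genes), and without thinning the difference in replicate 2 was −109.5 genes.

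In both replicates, 153 genes were detected in at least 50% of the oocytes of 60–69 μm and in fewer than 50% of those < 60 μm, and 45 genes showed the opposite pattern, while 8437 were detected in at least 50% of both groups. As a share of the 21218 gene IDs these were 0.721% and 0.212%, against 3.79% and 3.12% within replicate 1 alone and 3.40% and 1.68% within replicate 2 alone. Within replicate 1 the order turned with no thinning (2.55% and 3.50%) and with all deposited oocytes of 250000 counts or more (2.78% and 4.22%). The detection of 3 oocytes can take few values, so a share of 33.3% in replicate 1 means 1 oocyte. Of the 153 genes 42 carry a symbol, and 1 was called in the fit. Of the 45 genes 12 carry a symbol, and 0 were called. Over all 14087 genes tested, 2 were called upregulated (0.0142%). Both sets were chosen by detection in the same oocytes that the fit uses, so a call among them is no separate support.

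Among the genes of the first pattern, chosen here after their values were seen, CD44, a receptor for hyaluronan, was detected in 33.3% of the oocytes < 60 μm and in 88.2% and 87.5% of those of 60–69 μm (log2 fold change 1.03, adjusted p = 1.0, edgeR). AXIN1, a scaffold of the beta-catenin destruction complex, was detected in 0% and 44.4% against 70.6% and 100%. ACSS2, which makes acetyl-CoA from acetate, was detected in 33.3% and 27.8% against 100% and 62.5%. HPGD, which degrades prostaglandins, was detected in 0% and 33.3% against 52.9% and 87.5%. DOCK8, a guanine nucleotide exchange factor, had the opposite pattern and was detected in 100% and 61.1% at < 60 μm and in 17.6% and 12.5% at 60–69 μm (log2 fold change −1.71, adjusted p = 1.0, edgeR). These shares are values of oocytes and carry no test.

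**Figure D4:**
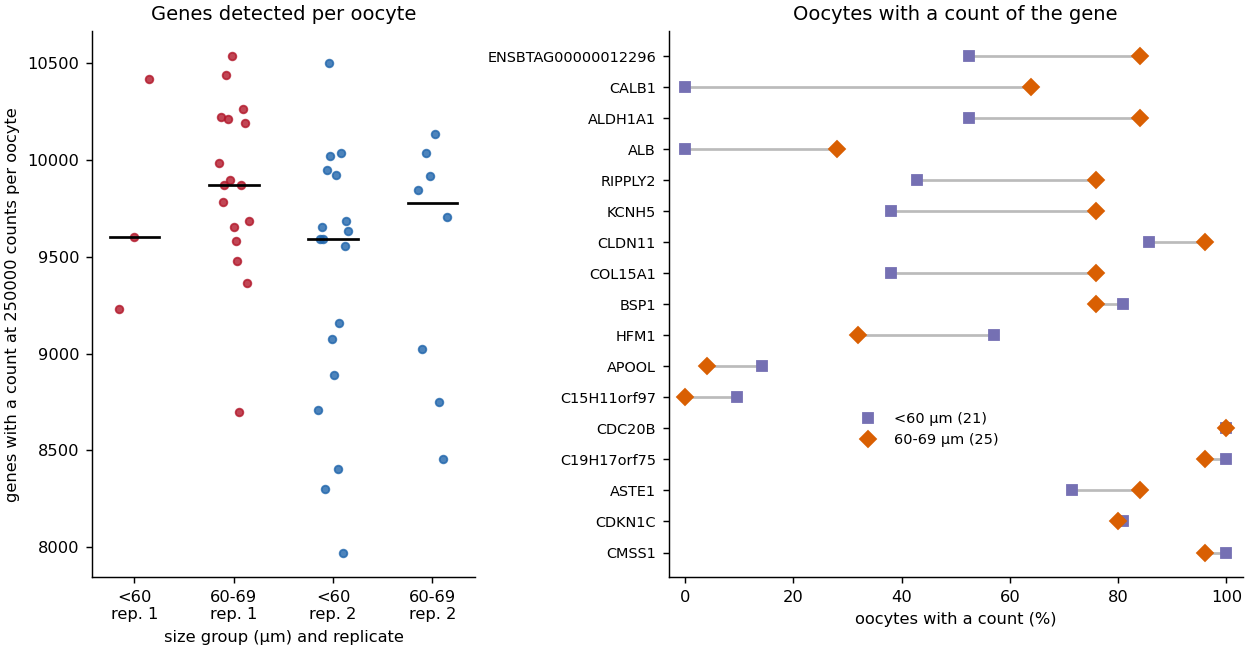
The left panel plots the number of genes with a count in each oocyte thinned to 250000 counts, by size group (μm) and replicate, with a line at the median; the right panel plots the percentage of oocytes with a count, without thinning, for the named genes. The gene numbers of the groups overlap in both replicates, and CALB1 goes from 0 of 21 to 16 of 25 oocytes.

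Gene groups known for their roles in oocytes were described by 16 lists, limited to genes with a symbol in the tables used. In 15 of the lists no member was called, and in the list of calcium binding and calcium signalling CALB1 was the only called member of 23 tested. With 0.0142% of all genes called, a count of 0 is at the background for lists of this size and is no result about their members. In the fit over all genes 6862 were higher and 7225 lower, beside which the counts of the lists stand. The median log2 fold changes of the lists lay between −0.17 and 0.08, beside −0.01 for all genes tested. The replicates gave medians of opposite sign for 13 of the 16 lists.

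In the calcium list, CALB1 included, 13 members were higher and 10 lower in the fit (median log2 fold change 0.04, beside −0.01 over all genes). CAMKK1, a kinase that activates calmodulin kinases, had 0 counts in all oocytes < 60 μm, 27 counts in 9 of 17 oocytes of 60–69 μm of replicate 1, and none in replicate 2 (adjusted p = 1.0, edgeR).

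Among the growth factor genes, the 12 BMP and activin genes tested had 5 higher and 7 lower members in the fit, and the smallest p belonged to BMP6, a BMP ligand (log2 fold change 0.73, SE 0.50), and BAMBI, a decoy receptor (−0.46, SE 0.41). BMP15 had 575 and 855 CPM on the raw totals at < 60 μm and 805 and 785 CPM at 60–69 μm, a difference of opposite sign in the replicates. Of 25 genes of deadenylation and polyadenylation 14 were higher and 11 lower, and CSTF2, a cleavage stimulation factor, had a log2 fold change of 0.58 (SE 0.31). BTG4 was among the most abundant genes at 2475 and 2758 CPM, and 2898 and 4172 CPM at 60–69 μm (log2 fold change 0.40, SE 0.34, adjusted p = 1.0, edgeR).

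In the lists of energy metabolism, the 17 nuclear genes of ATP synthase had a median log2 fold change of −0.08, with −0.16 within replicate 1 and 0.05 within replicate 2. The assembly factors ATPAF2 (−0.65, SE 0.34) and ATPAF1 (0.41, SE 0.28) had the smallest p of that list. The 23 nuclear genes of cytochrome c oxidase had a median of −0.04, with −0.12 and 0.09 within the replicates, and the assembly factors COX18 (0.56, SE 0.42) and COX11 (0.45, SE 0.39) had the smallest p. The 4 genes of the mitochondrial genome (ATP6, ATP8, COX1 and COX2) differed in opposite directions in the replicates, all 4 of them, with medians of −0.46 and 0.10. Together they took 0.268% to 2.38% of an oocyte's counts. Their values change with the oocytes used: COX1 had 0.24 in the main fit and −0.13 without the 3 oocytes < 60 μm of replicate 1. The vacuolar ATPase list, whose proton pump acidifies lysosomes and vesicles, was 1 of the few with the same sign in both replicates (−0.09 and −0.14), with 6 members higher and 10 lower in the fit.

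Cell cycle and cell death lists held the smallest p-values outside CALB1. CCNE1, cyclin E1, had 12.0 and 7.61 CPM in the sums at < 60 μm and 25.3 and 13.9 CPM at 60–69 μm (log2 fold change 0.97, SE 0.36, adjusted p = 1.0, edgeR), with counts in 13 of 21 and 24 of 25 oocytes. Its list of 34 cyclins, kinases and ubiquitin ligase subunits had 16 members higher and 18 lower, and CDKN1C was its other leading member. CASP1, an inflammatory caspase, had 15.6 and 23.7 CPM against 24.5 and 59.7 CPM (log2 fold change 1.01, SE 0.30, adjusted p = 1.0, edgeR). CASP4, a caspase of the same group, had 15 counts in 3 oocytes of 60–69 μm of replicate 1 and 0 in all others. The 24 kinetochore and Aurora kinase genes had a median of 0.04, the largest fold being that of CENPA, the centromeric histone (0.44, SE 0.40), with CENPI at 0.39 (SE 0.33).

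In the remaining lists, of 22 genes of actin and the Arp2/3 complex, 12 were higher and 10 lower, led by ARPC1A (0.38, SE 0.29) and ACTR3 (0.28, SE 0.27), subunits of that complex. Of 7 chaperonin genes 4 were higher and 3 lower, with CCT3 at −0.41 (SE 0.31) and CCT6A at 0.29 (SE 0.34). Vesicle coat genes had 12 higher and 16 lower members, AP3B1 at −0.41 (SE 0.29) and COPZ2 at −0.61 (SE 0.43). Chromatin genes had 21 and 17, and CHD2, a chromatin remodeler, had −0.89 (SE 0.50), while CHD3 had 12 and 4 counts at < 60 μm and 2 and 0 at 60–69 μm. Adhesion genes had 7 and 9, with CDH1, E-cadherin, at 0.53 (SE 0.29) and CDH18 at −0.98 (SE 0.55). Cathepsins and their inhibitors had 8 and 4, with CTSA at −0.81 (SE 0.44) and CTSD at 0.64 (SE 0.38). All members of these lists had an adjusted p of 1.0 (edgeR, Benjamini-Hochberg).

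**Figure D5:**
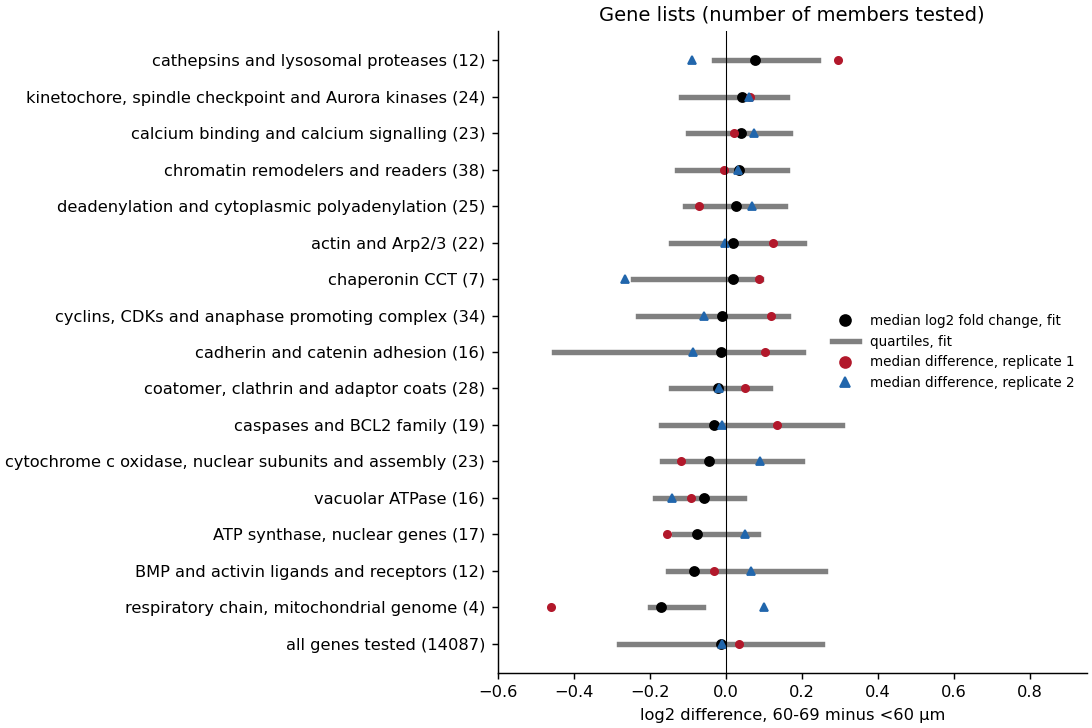
For each gene list and for all genes tested, the black point is the median log2 fold change (60–69 minus < 60 μm) of the fit, the grey bar its quartiles, the red circle the median difference within replicate 1 and the blue triangle that within replicate 2. Fitted medians lie between −0.17 and 0.08, and red and blue points lie on opposite sides of 0 in 13 of the 16 lists.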

How the data were processed

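Single-oocyte RNA-seq of growing bovine oocytes was used, 1 deposited column of raw counts per oocyte. Before deposit, the authors ran Trim Galore (version 0.6.6 in the submitters' processing notes), HISAT2 against ARS-UCD1.2 and the gene quantification of SeqMonk. The deposited counts carry no normalization or batch correction, and amplification copies are not marked, so intervals and floors cover counting error only. The handling of multiply aligned reads, of strand and of overlapping genes is not given in the sources used here. No column was left unused.

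Oocytes were matched by ID to the study's list of analysed oocytes. Lines of a repeated gene ID were summed (1679 of 21218 IDs). Symbols came from the study's supplementary tables, which pair 3608 IDs (17.0%) with a symbol, 80.3% of them starting with A, B or C, so gene families are covered unevenly. Coordinates and sequences are not used here.

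Counts were summed per size group and replicate (16 sums), filtered with filterByExpr of edgeR 4.0.16 (minimum count 10, minimum total 15), scaled by TMM and fitted with size group and replicate as terms. The contrast 60–69 minus < 60 μm was tested with edgeR's quasi-likelihood test, with DEGs at a Benjamini-Hochberg adjusted p below 0.05. All 8 groups shared 1 estimate of the spread. The SE was the log2 fold change over the root of F. A replicate is a library batch, and its sums deviated together (correlations of deviations 0.398 to 0.694 over 28 pairs of groups, 0.471 for the pair compared), so the replicate number pairs them and stands in the fit as a block. Differences within a replicate are of log2 CPM with a prior count of 2. Oocyte levels are CPM of the oocyte's own total, and levels of sums are TMM-scaled unless said otherwise. The fit was tested on simulated data.

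Genes were named by rule: every called gene, the 8 of smallest p in each direction with a symbol and the same direction in both replicates, the 2 members of smallest p of each list, and cell type markers. The members, lists and rules were chosen with earlier results of these data known. Alternatives were no block, RLE, DESeq2 1.42.0, no filter, only the groups compared, single oocytes as units (raw counts, or ComBat-seq counts from sva 3.50.0 with no block), thinning, all 179 oocytes, sums without their deepest oocyte, lines kept apart, each sum left out, and, added after seeing the data, the fit without oocytes that stand apart. R 4.3.3, Python 3.11.15, numpy 2.4.6, pandas 2.3.3 and matplotlib 3.10.9 were used.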

Additional observations from a re-analysis of the deposited data

Results flagged for a closer look

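Among the 8 oocytes of 60–69 μm of replicate 2, the only combination of group and replicate with 4 to 10 oocytes, the 15 named genes with a count there were screened for 1 oocyte far from the others, and 5 had one, always the highest. The limit used would mark about 1 in 20 sets of normally distributed values. Levels of single oocytes are skewed and hold zeros, so that rate does not apply here. The 5 of 15 cannot be read as an excess over chance.

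For ENSBTAG00000012296 the gap to the next oocyte was 0.747 of the range, with 92.2 CPM in the highest oocyte, 32.0 CPM in the next and a median of 18.3 CPM. ALDH1A1 had a gap of 0.594 of the range (72.9 against 29.6 CPM, median 19.3 CPM). RIPPLY2 had a gap of 0.578 (19.7 against 8.77 CPM, median 4.32 CPM). ALB had a gap of 0.80 (8.06 against 1.61 CPM, median 0 CPM), and HFM1 had one of 0.673 (1.01 against 0.329 CPM, median 0 CPM). CALB1 was not among them: its highest oocytes had 15.985 and 14.5 CPM.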

How the results depend on the processing

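The count of 2 upregulated genes became 0 with no replicate block and with single oocytes of the 2 groups as units, 1 with thinning to 250000 counts and with all 179 oocytes, 4 with single oocytes of all groups, 6 with only the 4 sums compared, 7 with DESeq2 and with no filter, and 16 with single oocytes of all groups, ComBat-seq counts and no block together. Leaving out each of the 16 sums gave 0 to 52 upregulated and 0 to 1 downregulated genes. The 52 came without the < 60 μm sum of replicate 2, which leaves 3 oocytes in that group, and the 0 without the 60–69 μm sum of replicate 2; the 1 downregulated gene came without the < 60 μm sum of replicate 1. In all other alternatives 0 genes were downregulated. The lone sum left in a group is assumed to vary like the other groups. ENSBTAG00000012296 was called in 27 of 30 settings (log2 fold change 2.67 to 3.42) and CALB1 in 24 of the 29 that tested it. Without the block, the adjusted p was 1.0 for both (edgeR).

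Of 47 named genes, 42 kept their direction in every alternative that tested them, and 5 that were not called reversed at least once. Most alternatives refit the same counts, and many of the genes were chosen for a shared direction, so a kept direction is no separate support. BAMBI had 0.38 without the deepest oocytes and 0.0145 without the < 60 μm sum of replicate 2. COX2 had 0.20 and COX1 −0.13 without the < 60 μm sum of replicate 1. COX1 had −0.0631 with single oocytes of all groups, −0.19 with those of the 2 groups, −0.0614 with single oocytes, ComBat-seq counts and no block, −0.39 with all 179 oocytes and −0.0383 without the deepest oocytes. CCT6A had −0.16 with all 179 oocytes and −0.0612 without the deepest oocytes, and CASP4 had −0.18 without the 60–69 μm sum of replicate 1. The cause was not tested.

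The genes detected at 60–69 μm and not below made up 0.721% of all gene IDs over both replicates and 3.40% to 3.79% within 1 replicate alone. The reverse share of 0.212% became 0.325% at 100000 counts and 1.68% to 3.12% within 1 replicate alone. Depth limits the rare genes: a gene under 1 CPM gives few counts in an oocyte.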
